A study of Mus musculus with 12 samples.

Results

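The core circadian clock was examined as 10 genes in the tibialis anterior, a fast-twitch muscle of the lower leg: Clock, Arntl, Per1, Per2, Per3, Cry1, Cry2, Nr1d1, Nr1d2 and Dbp. The genes were chosen by symbol as textbook components of the clock, and all 10 were found among the 23923 genes analysed and passed the filter on low values. The controls were 6 mice of genotype Myf6 cre/+; Smyd1 flox/+, and the Smyd1 CKOs were 6 mice of genotype Myf6 cre/+; Smyd1 flox/-, aged 6 weeks, of strain C57BL6/J;129S1/SvImJ. SMYD1 is a lysine methyltransferase of striated muscle. The cre cassette is expressed together with Myf6, a myogenic factor of the muscle fiber, in both groups, and by the study's methods both groups also carried a Rosa26 YFP allele. Controls therefore had a floxed Smyd1 allele as well, and CKOs had a null allele in every cell of the body. Each mouse gave 1 library. The time of day of tissue collection is not given in the sources used here.

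The clock is a feedback loop of transcription in nearly every cell. CLOCK and its partner BMAL1, the product of Arntl, bind E-boxes and switch on the Per and Cry genes, whose proteins then repress CLOCK and BMAL1. In a further loop REV-ERB alpha and REV-ERB beta, the products of Nr1d1 and Nr1d2, repress Arntl, and DBP acts through D-boxes on output genes. In skeletal muscle of mice housed under a light cycle, Arntl RNA is known to peak at a different time of day from Dbp, Nr1d1 and Per RNA, so a single collection of tissue records a position in the cycle as well as a level.

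Of the 13 RefSeq promoter entries that match the members (GRCm38.p6, 250 bases before to 50 after the start), 4 hold such an element, and each match is shown with 10 bases on either side because the elements define the arms of the loop. Capitals mark the match. The Per3 entry (chr4:151044616-151044915, minus strand) holds 2 D-boxes, 205 and 158 bases before the start. The Arntl match (entry chr7:113207261-113207560, plus strand) is a ROR and REV-ERB element that begins 28 bases after the start, in the transcribed part. The E-boxes lie 60 bases before the start of Cry1 (chr10:85185005-85185304, minus strand) and 166 bases before that of Per1 (chr11:69098699-69098998, plus strand).
Per3: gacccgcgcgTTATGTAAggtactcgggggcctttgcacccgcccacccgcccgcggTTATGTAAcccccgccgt
Arntl: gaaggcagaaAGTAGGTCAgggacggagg
Cry1: tgccggtggtCACGTGgggtgcatgc
Per1: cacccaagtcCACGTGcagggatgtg

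The promoter entries were searched on both strands for the motifs spelled out here. The E-box CACGTG was found in 7.15% of all 32851 promoter entries, the D-box TTATGTAA or TTACGTAA in 1.06%, the element AGTAGGTCA in 0.192%, its core TAGGTCA, which lies inside it, in 2.61%, and the cAMP element TGACGTCA in 1.79%. No motif was found in the entries of Clock, Cry2, Nr1d1, Nr1d2 and Dbp, which says only that these letters are not in these windows. Per2 had no entry.

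Expression was given as FPKM, a fragment count scaled by transcript length and by library size, so that levels can be compared between genes. The groups were compared with limma on log2(FPKM + 0.1) for the 12695 genes that reached 0.1 FPKM in 6 or more mice. The number of reads per library is unknown. The relative depth, estimated from the spacing of very low FPKM values, ran from 0.983 to 1.77 times that of control 1. The FPKM of Smyd1 itself lay between 32.9 and 47.1 in controls and between 27.8 and 39.9 in CKOs (log2 fold change -0.13, adjusted P = 0.545). A value for the whole gene does not isolate the floxed part, so it does not check the labels. The study reported that western blots did not detect SMYD1 protein in the tibialis anterior of its CKO mice. Skeletal muscle genes were summed over Acta1, Ckm, Myh4, Myh1, Tnnt3, Tnni2 and Actn3. The sums were 18099 to 26815 FPKM in controls and 20937 to 25353 FPKM in CKOs. These muscle genes were thus abundant in every library, but they moved in both directions. Of the 7 genes summed, 2 were higher (Myh1 and Myh4) and 1 was lower (Acta1) in CKOs at an unadjusted P below 0.05, beside 18.1% and 1.76% of all genes. Only Myh1 had an adjusted P below 0.05 (log2 fold change 1.05, adjusted P = 0.00733, limma).

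None of the 10 clock genes passed a test between Smyd1 CKOs and controls. At an adjusted P below 0.05, 2.02% of all genes tested were higher and 0.268% were lower in CKOs. At an unadjusted P below 0.05 these shares were 18.1% and 1.76%, and the count of clock genes was again 0 in each direction. The split of all genes depended on scaling: after median-ratio scaling 97 genes were higher and 90 lower at the adjusted threshold, in place of 257 and 34. The adjusted P of the members ran from 0.487 for Cry2 to 0.991 for Nr1d1 (limma, Benjamini-Hochberg over all genes tested), and exact permutation tests over all assignments of mice to groups gave unadjusted P from 0.288 to 0.989. The groups overlapped for every member, whereas 2.42% of all genes had groups that did not overlap. The intervals were wide for several members, so that these P values do not show that the levels were alike.

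Within each group, however, the mice differed widely in the same genes. Arntl and Dbp showed this most clearly. Arntl FPKM was 0.926, 1.37, 7.84, 2.10, 1.89 and 0.851 in controls 1 to 6. It was 5.22, 1.09, 1.54, 0.987, 1.15 and 4.42 in CKOs 1 to 6. Control 3, CKO 1 and CKO 6 thus lay at 4.42 to 7.84 FPKM, and the other 9 lay between 0.851 and 2.10 FPKM.

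Dbp, a transcription factor of the PAR bZIP family that carries the rhythm to output genes, ran the other way. Its FPKM was 11.2, 10.4, 1.90, 3.99, 3.75 and 9.03 in controls 1 to 6. In CKOs 1 to 6 it was 1.51, 10.7, 9.77, 11.5, 3.66 and 1.95. The same 3 mice were the lowest, at 1.51 to 1.95 FPKM. Controls 4 and 5 and CKO 5 came next, at 3.66 to 3.99 FPKM, and the remaining 6 mice, 3 of each group, lay between 9.03 and 11.5 FPKM with no value in the gaps between the sets.

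**Figure D1:**
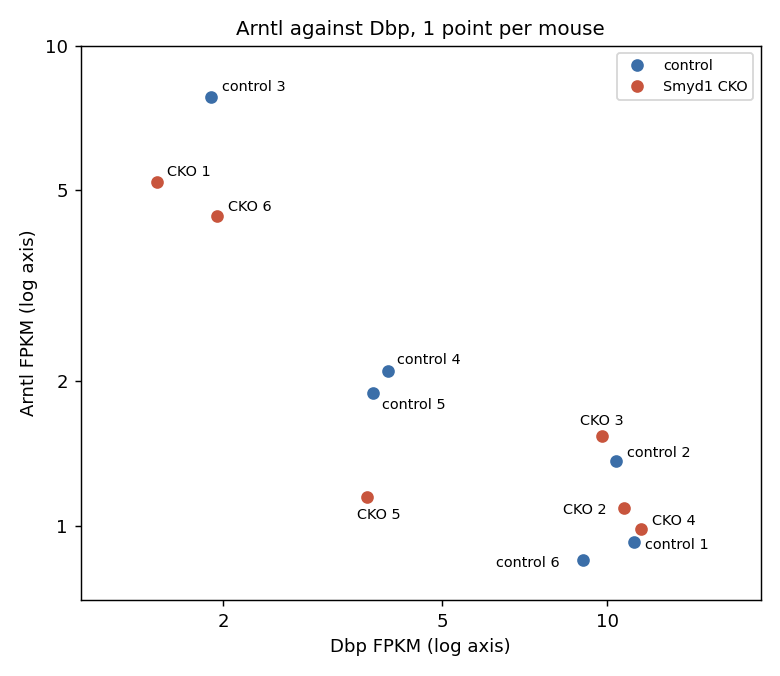
Arntl FPKM against Dbp FPKM on log axes, with 1 point per mouse (blue, 6 controls; red, 6 Smyd1 CKOs). Control 3, CKO 1 and CKO 6 lie at the upper left, with Arntl at 4.42 to 7.84 FPKM and Dbp at 1.51 to 1.95 FPKM, and both groups occur in each of the 3 sets of points.

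The log2 ratio of Arntl to Dbp, each taken as FPKM + 0.1, combines both genes. A scaling factor of a library would cancel in it except for the added 0.1. It was 1.99 in control 3, 1.72 in CKO 1 and 1.14 in CKO 6. It was -0.90, -0.95 and -1.59 in control 4, control 5 and CKO 5. The remaining 6 mice had ratios between -3.46 and -2.59. Controls thus spanned -3.46 to 1.99 and CKOs -3.42 to 1.72, nearly the same range.

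The activators differed in how far they moved. Clock encodes the DNA-binding partner of BMAL1. Its FPKM was 5.91 in control 3 and 2.64 to 3.47 in the other controls, and 5.78 and 5.38 in CKOs 1 and 6 against 3.24 to 4.08 in the other CKOs. The 3 mice with the most Arntl were therefore also the 3 highest in Clock, but their Clock values were less far from the rest. The CKO mean was 4.29 ± 1.07 FPKM and the control mean 3.69 ± 1.13 FPKM (SD, n = 6 each), with a log2 fold change of 0.22 (95% interval -0.18 to 0.62, adjusted P = 0.518). Without control 3 the log2 fold change of Clock was 0.36 (unadjusted P = 0.0412, adjusted P = 0.227, limma). Arntl averaged 2.40 ± 1.90 FPKM in CKOs and 2.50 ± 2.67 FPKM in controls (SD, n = 6 each), and its log2 fold change was 0.06 (95% interval -1.03 to 1.15, adjusted P = 0.964).

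The Per genes encode the period repressors. Control 3 was the lowest of the 12 mice in each of them, at 0.474 FPKM for Per1, 0.452 FPKM for Per2 and 0.453 FPKM for Per3, and CKO 1 was the second lowest in each, at 1.35, 0.574 and 1.02 FPKM. CKO 6 did not join them throughout. For Per3 it lay just above control 5, at 1.50 against 1.49 FPKM, and it was within the range of the other mice for Per1, at 2.17 FPKM, and for Per2, at 1.57 FPKM. The remaining 9 mice had 1.56 to 3.94 FPKM of Per1, 1.30 to 3.06 FPKM of Per2 and 1.49 to 2.64 FPKM of Per3.

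Between the groups, Per3 had the largest fold change of the members on the FPKM as deposited (CKO 2.06 ± 0.645 and control 1.65 ± 0.646 FPKM, SD, n = 6 each). Its log2 fold change was 0.37 (95% interval -0.32 to 1.06, adjusted P = 0.530), which became 0.19 after median-ratio scaling of the libraries, where Dbp had the largest (-0.37). Per2 averaged 1.71 ± 0.816 FPKM in CKOs and 1.35 ± 0.462 FPKM in controls, a log2 fold change of 0.28 (95% interval -0.44 to 1.01, adjusted P = 0.662). Without control 3 the log2 fold changes were 0.07 for Per3 and 0.03 for Per2, and those of Dbp and Arntl were then the largest in size, at -0.49 and 0.47. That of Per1 in all mice was 0.02 (95% interval -0.80 to 0.84, adjusted P = 0.982).

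**Figure D2:**
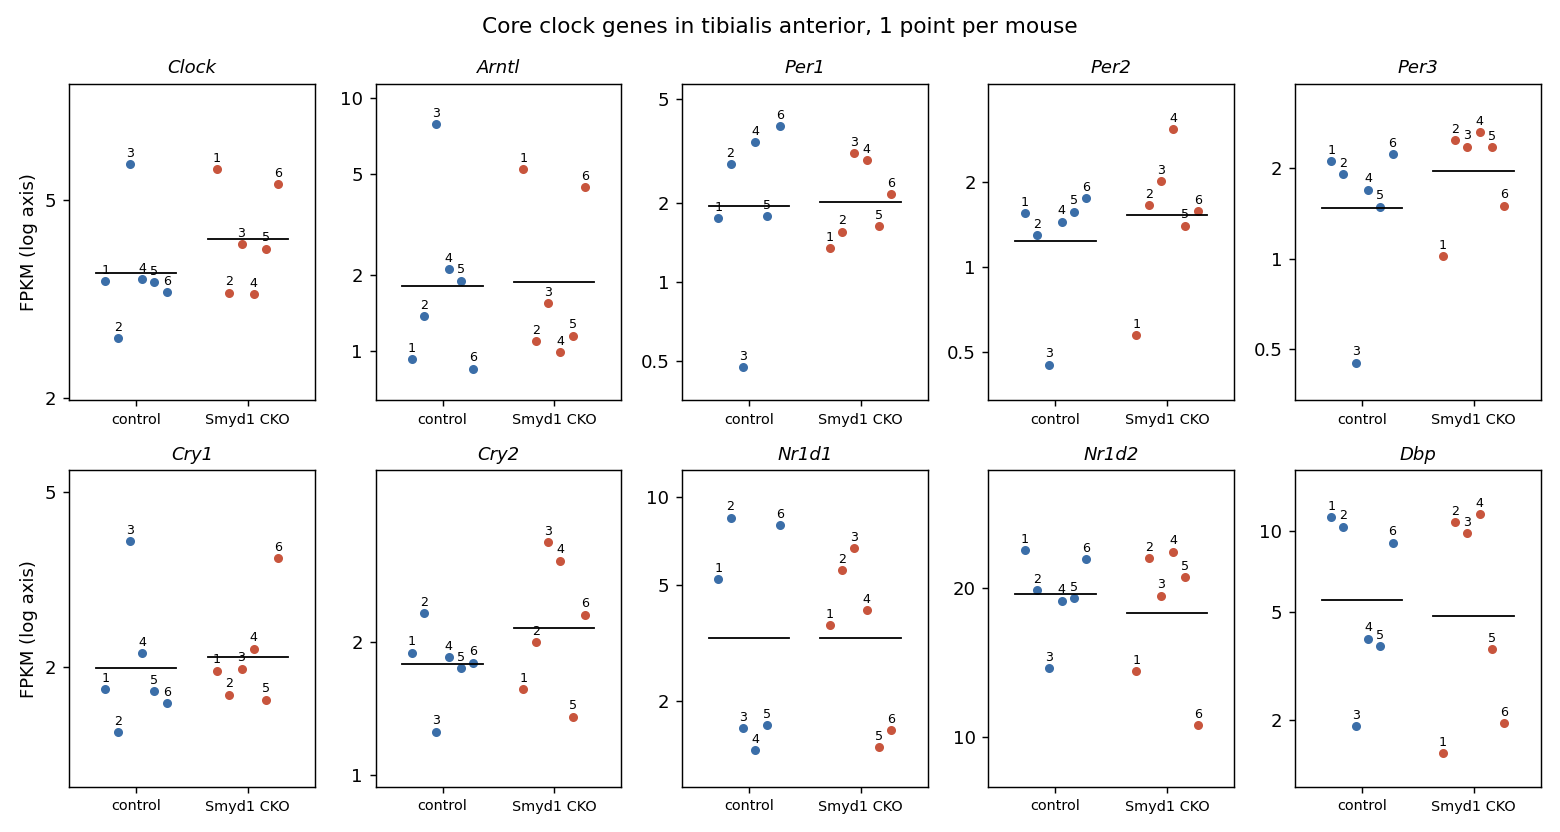
FPKM of each clock gene on a log axis, with 1 point per mouse numbered by replicate (blue, control; red, Smyd1 CKO) and a bar at the geometric mean of each group. The groups overlap for all 10 genes, and control 3, CKO 1 and CKO 6 are the 3 highest mice for Clock and Arntl and the 3 lowest for Nr1d2 and Dbp.

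The cryptochromes are the partners of the period proteins in repression. Cry1 was highest in control 3 and CKO 6, at 3.87 and 3.54 FPKM, while the other 10 mice, CKO 1 included, lay between 1.42 and 2.20 FPKM. Cry1 therefore did not follow Arntl in CKO 1. Cry2 was lowest in control 3, at 1.26 FPKM, and highest in CKOs 3 and 4, at 3.38 and 3.06 FPKM. The log2 fold change was 0.08 for Cry1 (95% interval -0.40 to 0.56, adjusted P = 0.862) and 0.26 for Cry2 (95% interval -0.18 to 0.71, adjusted P = 0.487).

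Nr1d1 split the mice in another way. It was low, at 1.36 to 1.66 FPKM, in controls 3, 4 and 5 and in CKOs 5 and 6, which are the mice with low or middle Dbp apart from CKO 1. CKO 1 had 3.63 FPKM of Nr1d1 with the lowest Dbp of the series, and the remaining 6 mice had 4.09 to 8.50 FPKM. The log2 fold change was -0.01 (95% interval -1.09 to 1.06, adjusted P = 0.991).

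Nr1d2, the other REV-ERB gene, was the most highly expressed of the 10 and moved over a smaller range. It was 13.8 FPKM in control 3, 13.6 FPKM in CKO 1 and 10.6 FPKM in CKO 6, and between 18.9 and 23.9 FPKM in the other 9 mice. The CKO mean was 18.6 ± 5.32 FPKM and the control mean 19.7 ± 3.57 FPKM (SD, n = 6 each), with a log2 fold change of -0.12 (95% interval -0.54 to 0.29, adjusted P = 0.742). Dbp averaged 6.52 ± 4.64 FPKM in CKOs and 6.71 ± 3.95 FPKM in controls (SD, n = 6 each), with a log2 fold change of -0.19 and the widest interval of the members (-1.35 to 0.97, adjusted P = 0.869).

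**Figure D3:**
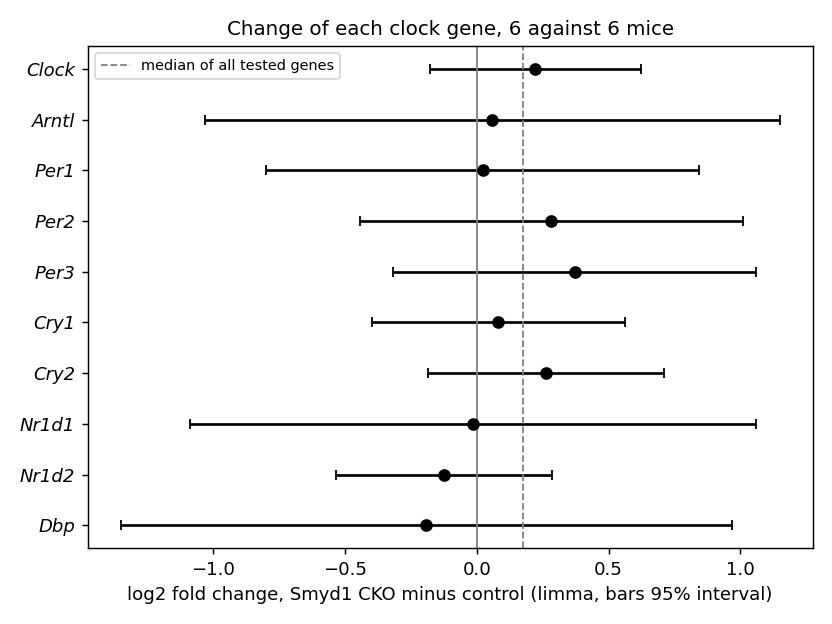
Log2 fold change of each clock gene, CKO minus control, from limma, with bars for the 95% interval (6 mice per group). All 10 intervals cross 0, and the dashed line marks the median of all 12695 genes tested, 0.18.

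All fold changes stand against a shift of the whole data. The median log2 fold change of all genes tested was 0.18, and 77.9% of them were positive. Of the clock genes 7 were positive and 3 negative, but only 4 lay above that median, and the median over the 10 was 0.07. After median-ratio scaling of the libraries, which brought the median of all genes to 0.01, the log2 fold changes of Arntl, Per1 and Cry1 turned negative (-0.12, -0.16 and -0.10), and no member had an adjusted P below 0.05 (lowest 0.557, Nr1d2).

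The order of the levels was similar in both groups only at its top. Nr1d2 exceeded Dbp in all 12 mice, by 1.78 on the log2 scale in controls and 1.85 in CKOs. Dbp, next in the order of mean log2 FPKM, exceeded Clock in 5 of 6 controls but in 3 of 6 CKOs, and Clock exceeded Nr1d1 in 3 of 6 mice of each group. Below them Per1, Cry1, Arntl, Cry2, Per3 and Per2 followed in controls and Cry2, Cry1, Per1, Per3, Arntl and Per2 in CKOs. No neighbours below Nr1d2 kept their order in all mice of a group.

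The spread between mice of the same group placed several members near the top of the data. The SD of log2(FPKM + 0.1) within groups was 1.15 for Dbp, 1.07 for Arntl and 1.06 for Nr1d1. These values lay at the percentiles 98.9, 98.6 and 98.5 of all genes tested. Per1, Per2 and Per3 lay at the percentiles 95.6, 92.6 and 91.1, with SDs of 0.80, 0.69 and 0.66. Cry1, Cry2, Nr1d2 and Clock varied less, with SDs of 0.36 to 0.44 at the percentiles 59.1 to 71.9. Among genes with a mean of at least 1 FPKM these 4 lay at the percentiles 76.7 to 86.5, and the other 6 members at 96.6 to 99.2.

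The next question was whether the mice of one group were more scattered than those of the other. The distance of each mouse from its group median was compared between the groups with limma. None of the 10 members passed an unadjusted P of 0.05, against 3.4% of all genes tested, and no gene of the 12695 passed the adjusted threshold (0%). The SD was larger in CKOs for 4 members and larger in controls for 6. For Per1 the SD of log2(FPKM + 0.1) was 1.02 in controls and 0.48 in CKOs (difference in distance from the median, CKO minus control, -0.33 ± 0.29 SE, unadjusted P = 0.257 by limma). Without control 3 the difference for Per1 was -0.00757. It was then 0.36 for Per2 (unadjusted P = 0.0420, adjusted P = 0.999, limma), the only member below 0.05.

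**Figure D4:**
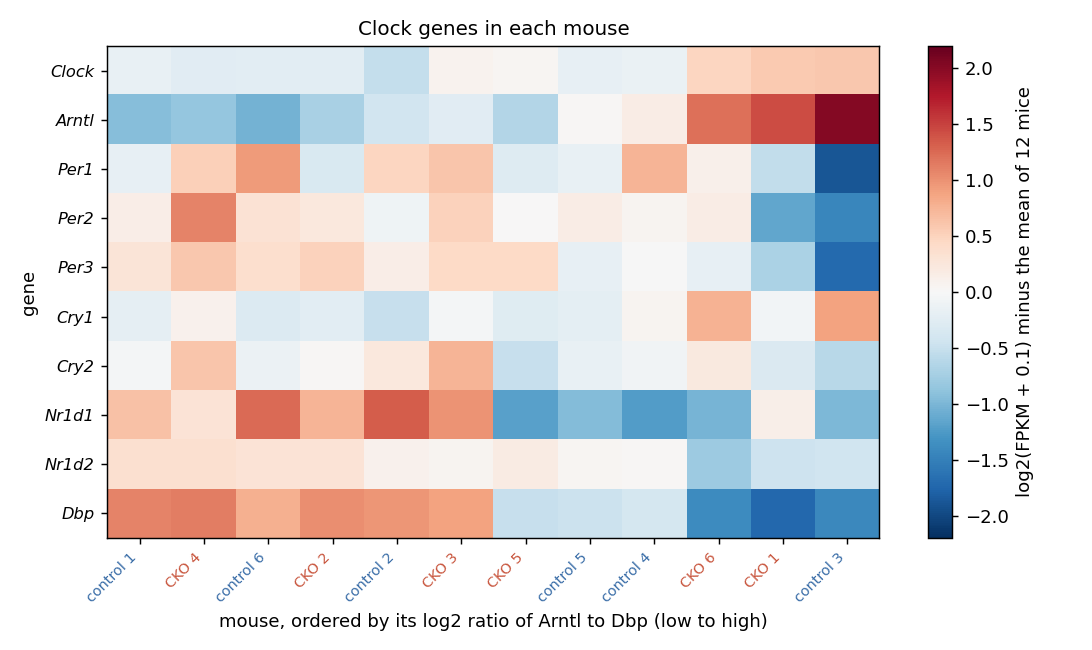
Log2(FPKM + 0.1) of the 10 clock genes minus each gene's mean over 12 mice (red above, blue below), with the mice ordered by their log2 ratio of Arntl to Dbp from low to high (blue names, control; red names, CKO). Both groups are spread along the order, and from left to right Arntl and Clock go from blue to red while Dbp and Nr1d2 go from red to blue.

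Correlations between members over all 12 mice were planned first, and 8 of 12 pairs passed the adjusted threshold. Because the mice fell into separate sets, they are given only as an alternative in the closing section. The relations given here were computed within the 9 mice with Arntl below 3 FPKM, as deviations from group means, for the same 12 pairs. Dbp and Nr1d1 still fell into separate sets among these 9, so that no value is given for the 4 pairs that hold them, although these stayed in the adjustment over 12 pairs. Arntl and Nr1d2 varied inversely (Pearson's r = -0.923, exact permutation P = 0.00139, Benjamini-Hochberg adjusted P = 0.0167; Spearman's rho = -0.933, exact permutation P = 0.00174, adjusted P = 0.0208). Leaving out controls 4 and 5, the mice farthest from the median of Arntl, gave r = -0.937. The relation did not pass after median-ratio scaling (r = -0.551, adjusted P = 0.391 by the exact permutation test). It also lost the adjusted threshold without control 2 or without any of CKOs 2 to 5, although r stayed between -0.938 and -0.921 in those cases.

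Arntl and Per3 also ran opposite to each other, with r = -0.901 and rho = -0.900 in the 9 mice, but did not pass the adjustment (exact permutation P = 0.0142 and 0.0177, adjusted P = 0.0854 and 0.106). Without controls 4 and 5, r was -0.874. After median-ratio scaling r was -0.544 (adjusted P = 0.410 by the exact permutation test). The adjusted P was 0.0313 by the same test without control 4 and also without control 5 (r = -0.926 and -0.950). For the other 6 pairs the exact permutation P ranged from 0.207 to 0.916 for r and from 0.223 to 0.929 for rho, and the adjusted P was at least 0.414. Among them Arntl with Clock had r = 0.280 and rho = 0.350, and Per1 with Per2 had r = 0.496 and rho = 0.433. Without the 2 mice farthest from the median of the first gene, r fell to -0.0522 for Arntl with Clock and to -0.00379 for Per1 with Per2. The joint rise of Arntl and Clock in control 3, CKO 1 and CKO 6 was thus not resolved among the remaining mice.

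The genes whose pattern over the 12 mice was most like that of Arntl, among 7969 genes with a mean of at least 1 FPKM, were Kcnma1, Wsb1, Dido1, Clock and Arhgap35. The most opposite were Per3, Nr1d2, Dbp, Tcap and Klhl15, so that the 3 most opposite of 7968 genes were themselves members. This ranking is by Pearson's r over all 12 mice and is a description with no test. Without the 3 mice with high Arntl, r with Arntl was -0.901 for Per3 and -0.923 for Nr1d2, against -0.956 and -0.924 over 12 mice. Other genes of the ranking were weaker within these 9 mice. There r with Arntl was 0.555 for Kcnma1, 0.544 for Wsb1, 0.310 for Dido1 and 0.280 for Clock. It was -0.466 for Tcap and -0.688 for Klhl15, while that of Arhgap35 was -0.03. Kcnma1 encodes a calcium-activated potassium channel, and Tcap encodes telethonin, a protein of the Z-disc.

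Nr1d2 and Per3 were the genes most like Dbp by the same ranking over 12 mice, followed by A330023F24Rik, Snrk and Sdc3. Rabgef1, Six4, Wnt9a, Bcor and Zhx2 ran opposite to it. Within the 9 mice r with Dbp was -0.942 for Six4, a homeobox factor of muscle development, and -0.908 for Bcor, a transcriptional corepressor. These values are descriptions from the search of all 7969 genes, and the 9 mice share the separate sets of Dbp described above.

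Six4 was 4.87 FPKM in control 3, 4.55 FPKM in CKO 1 and 4.95 FPKM in CKO 6. It was 3.29, 3.82 and 4.64 FPKM in controls 4 and 5 and CKO 5. In the 6 mice with the most Dbp it lay between 2.56 and 3.61 FPKM. The 3 sets of Dbp overlapped in Six4, with control 4 inside the range of the last 6 mice and CKO 5 inside that of the first 3.

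Other genes of the clock, its inputs and its outputs were read from 6 lists of 57 genes, of which 53 were tested. None passed the adjusted threshold in either direction, and at an unadjusted P below 0.05 there were 5 higher and 9 lower, beside 18.1% higher and 1.76% lower among all genes tested. The median log2 fold change over the 53 was -0.03, beside 0.18 for all genes tested. The positive arm and RORE arm had 3 tested genes, with 0 at the unadjusted threshold. Rora, a nuclear receptor that activates Arntl, had a log2 fold change of -0.04, and Nfil3, a repressor at D-boxes, had -0.03. Npas2, a relative of Clock, was under the filter. Its 2 highest values in the series, 0.388 and 0.150 FPKM, were those of CKO 1 and CKO 6. Control 3, which had the most Arntl, had 0.0526 FPKM of Npas2, below CKO 2 at 0.0614 FPKM.

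Of the output bZIP factors and further repressors, 1 of 5 was lower at the unadjusted threshold, beside 1.76% of all genes tested. Bhlhe40, a repressor at E-boxes, had a log2 fold change of -0.43 (unadjusted P = 0.0429, adjusted P = 0.234, limma). Tef, a relative of Dbp, had a log2 fold change of 0.25 and Hlf, the other relative, had -0.37, neither of which passed. Ciart, a repressor that is itself strongly rhythmic, was 0.158 FPKM in control 3 and 3.06 FPKM in control 6, the lowest and the highest value of the 12 mice. Its log2 fold change was -0.76 (SE 0.53, adjusted P = 0.429, limma).

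Among the kinases and ubiquitin ligases that act on clock proteins, 3 of 12 tested genes were higher and 1 was lower at the unadjusted threshold. At this threshold 18.1% of all genes were higher and 1.76% were lower. Csnk1d, a casein kinase that phosphorylates period proteins, had a log2 fold change of 0.30 (adjusted P = 0.160), and Cipc, an inhibitor of CLOCK, had -0.25 (adjusted P = 0.167). Among clock-controlled outputs 2 of 11 were lower, beside the same 1.76%, and none was higher. The lower genes were the lipid phosphatase gene Lpin1 (-0.35, adjusted P = 0.139) and the heat shock gene Hspa1b (-1.56, adjusted P = 0.142). Wee1, a kinase gene of the cell cycle, had a log2 fold change of 0.41 (adjusted P = 0.320).

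The glucocorticoid-responsive list had 2 of 11 genes higher and none lower at the unadjusted threshold, a share like the 18.1% of all genes that were higher. Klf15, a Krüppel-like factor that is induced by glucocorticoids in muscle, lay between 3.21 and 4.93 FPKM in CKOs and between 1.95 and 3.35 FPKM in controls. Its log2 fold change of 0.57 came closest to the threshold among the higher genes of these lists (adjusted P = 0.0573, limma). Cdkn1a, a cell cycle inhibitor, had a log2 fold change of 0.99 (adjusted P = 0.217), and the metallothionein gene Mt1 had -0.80 (adjusted P = 0.255).

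Immediate early genes, which answer to acute stimuli and can feed into Per1, had 5 of 11 tested genes lower in CKOs at the unadjusted threshold and none higher, beside 1.76% lower among all genes. The median log2 fold change of the list was -0.75. Egr1 was 0.452, 10.1, 4.01, 0.9995, 3.65 and 1.08 FPKM in controls 1 to 6 and between 0.334 and 0.779 FPKM in CKOs (log2 fold change -1.92 ± 0.54 SE, adjusted P = 0.0777, limma). Of the controls, control 1 fell within the range of the CKOs and the others lay above it. Nr4a2 had a log2 fold change of -1.26 (adjusted P = 0.0690, limma) and Arc -1.09 (adjusted P = 0.107, limma). Without control 1, which had the highest fibroblast and macrophage sums of the series, 6 genes of the further lists passed the adjusted threshold. They were Klf15 (0.56, adjusted P = 0.0368), Jun, Junb, Egr1, Nr4a2 and Arc, with the last 5 between -2.32 and -0.77 (adjusted P 0.0103 to 0.0364, limma). In that fit 1067 of all 12695 genes tested were higher and 69 were lower at the adjusted threshold.

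**Figure D5:**
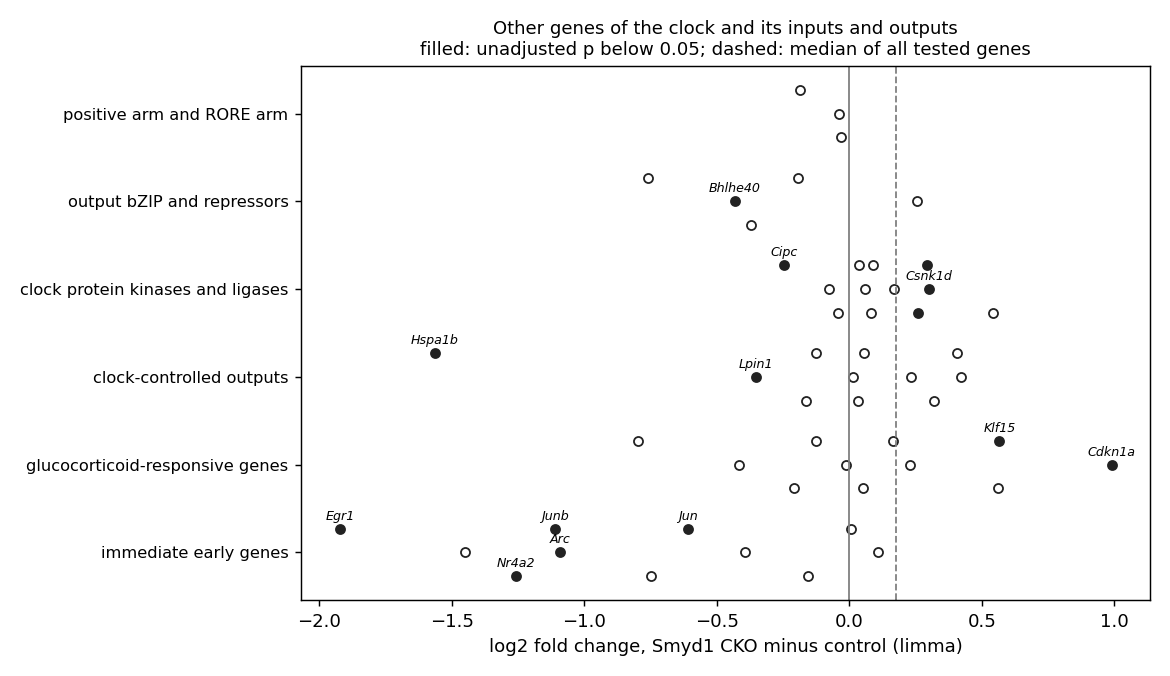
Log2 fold change of the 53 tested genes of the 6 further clock lists, CKO minus control, from limma, with filled points at an unadjusted P below 0.05, names for those described in the text, and a dashed line at the median of all genes tested, 0.18. The lowest points are Egr1, an immediate early gene, at -1.92 and Hspa1b, a clock-controlled output, at -1.56, and no point passes the adjusted threshold.

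Markers of fiber type and of other cells moved with some of these mice. The slow-fiber genes (Myh7, Tnnt1, Tnni1, Tnnc1, Myl2 and Myl3) summed to 14.1 to 46.0 FPKM in controls and 20.2 to 271 FPKM in CKOs. At the unadjusted threshold 5 of the 6 were higher in CKOs, beside 18.1% of all genes. Myl3 was not among them (log2 fold change -0.52, adjusted P = 0.330, limma), and it made up 9.96 of the 14.1 FPKM in control 3. CKO 6 and CKO 1 had the highest sums, 271 and 126 FPKM, and control 3, which shares their high Arntl and low Dbp, had the lowest, 14.1 FPKM. CKO 3 had the third highest sum, 75.0 FPKM, with Arntl at 1.54 FPKM. Fibroblast genes summed to 680 FPKM in control 1, to 177 to 224 FPKM in the other controls and to 243 to 403 FPKM in CKOs, and 2 of the 5 were higher in CKOs at the unadjusted threshold. The sums were 4.66 to 15.2 FPKM in controls and 4.72 to 11.1 FPKM in CKOs for macrophage genes. Endothelial genes summed to 26.8 to 38.2 and 25.8 to 44.1 FPKM. Sums over Schwann cell genes were 3.33 to 8.21 and 6.09 to 11.8 FPKM, over adipocyte genes 0.437 to 1.06 and 0.639 to 2.08 FPKM, and over blood genes 12.8 to 49.3 and 18.6 to 39.2 FPKM. Their part in the clock values was not tested, and in bulk tissue fewer cells of a type and less RNA per cell cannot be told apart.

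Some members overlap other genes, and whether the reads were counted by strand is not given in the sources used here. By the GRCm38 annotation, exons of Nr1d1 share 263 bases with Thra on the opposite strand, those of Dbp share 539 bases with Sphk2, and those of Cry2 share 295 bases with D930015M05Rik. Thra lay between 5.05 and 10.1 FPKM and Sphk2 between 0.686 and 1.37 FPKM over the 12 mice, narrower in fold than Nr1d1 and Dbp. D930015M05Rik lay between 0 and 0.469 FPKM, wider in fold than Cry2 at 1.26 to 3.38 FPKM. The part of these overlaps in the values of the members was not tested. Per3 lies within the span of Camta1 on the same strand with no shared exon, and Camta1 was higher in CKOs (log2 fold change 0.60, adjusted P = 0.0490, limma).

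The position of a mouse along the ratio of Arntl to Dbp had a limited effect on the count of genes called between the groups. With this log2 ratio added as a covariate, 257 genes passed the adjusted threshold, against 291 without it, and 242 genes were called in both. Clock genes were not counted in this fit. The covariate was added after the values were seen and is itself made from members, so that its fit is a description of how far the other genes followed them.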

How the data were processed

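RNA-seq of the tibialis anterior of 12 mice was analysed, with 1 library per mouse and groups taken from the genotype labels. The authors removed ribosomal RNA, aligned reads with bowtie2 and TopHat2 2.0.10 to mm9, dropped reads with several locations, and computed the deposited FPKM with Cufflinks 2.1.1 (versions and build from the submitters' processing notes). Each file listed 23950 rows, of which 27 held a date instead of a symbol. The depth in reads is unknown, so that no counting interval is given.

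Control and CKO mice were compared with limma 3.58.1 (R 4.3.3, prior variance with a trend) on log2(FPKM + 0.1) for the 12695 genes that reached 0.1 FPKM in 6 or more samples, with Benjamini-Hochberg adjustment over all of these. Spread was compared by the same fit on absolute distances from the group median. Correlations used exact permutation within groups (2880 shuffles). The correlation over 12 mice planned first is given only as an alternative, because the mice fell into separate sets, and the 9 mice were chosen after the values were seen. Named genes were the members, Smyd1, genes that overlap a member, the 3 genes with the smallest P of each list, and the 5 genes most and least like Arntl and Dbp. A few of the genes so chosen are left out of the text. Hlf, Npas2, Myh1 and the further immediate early genes Jun and Junb were named after their values were seen. The members and lists were chosen with earlier results of these data known. The code was tested on simulated data. The alternatives are given with their effects in the closing section.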

Additional observations from a re-analysis of the deposited data

Results flagged for a closer look

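In 20 sets of values (10 genes in 2 groups of 6), the mouse at an end of the range was compared with its nearest neighbor, as the gap over the whole range of log2(FPKM + 0.1), against a critical value of 0.625. Chance passes this limit in about 1 of 20 independent sets, and 4 passed. The 10 genes were measured in the same mice and several vary together. The sets are therefore not independent, and the 4 cannot be read as an excess over chance. Control 3 stood apart from the other controls for Clock (5.91 FPKM, ratio 0.666), for Per2 (0.452 FPKM, ratio 0.769) and for Per3 (0.453 FPKM, ratio 0.735). CKO 6 stood apart from the other CKOs for Cry1 (3.54 FPKM, ratio 0.642). These are 2 of the 3 mice with high Arntl. No mouse passed the limit for Arntl or Dbp in either group.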

How the results depend on the processing

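No clock gene passed the adjusted threshold under any setting run, and the lowest adjusted P was 0.227 (Clock, without control 3). Leaving out each sample in turn gave 0 to 1 clock gene at the unadjusted threshold and 0 to 1 for spread, in both cases 1 without control 3 (Clock and Per2). Of 200 alternative values of the members' log2 fold changes, 170 kept their direction and 30 did not. Median-ratio scaling turned Arntl to -0.12, Per1 to -0.16 and Cry1 to -0.10, quantile normalization to -0.13, -0.18 and -0.11, a pseudocount of 1 turned Per1 to -0.0377, and sample weights turned Per1 to -0.0357 and Nr1d1 to 0.31. With single samples left out, Arntl ranged from -0.22 to 0.47, Per1 from -0.35 to 0.21, Cry1 from -0.0611 to 0.27, Nr1d1 from -0.26 to 0.25, Per3 from 0.065 to 0.547, Per2 from 0.0251 to 0.541, Nr1d2 from -0.22 to 0.0247 and Dbp from -0.49 to 0.13.

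Over all genes, the adjusted counts higher and lower were 97 and 90 with median-ratio scaling, 101 and 68 with quantile normalization, 1400 and 115 with sample weights, and 170 higher without a filter. The unadjusted counts were 841 and 944, 810 and 837, and 3704 higher, in the same order of the first 3 settings. Leaving out 1 sample gave 84 (CKO 1) to 1067 (control 1) higher and 18 (CKO 1) to 69 (control 1) lower at the adjusted threshold. Genes with a different spread at the unadjusted threshold numbered 258 with a filter at 1 FPKM, 684 without a filter and 256 to 331 with a sample left out. Of the further clock lists, 1 gene passed the adjusted threshold with a filter at 1 FPKM (Klf15), 1 with median-ratio scaling (Lpin1), 8 with sample weights and 0 to 6 with a sample left out (6 without control 1). At the unadjusted threshold, 5 were lower with the 1 FPKM filter, 1 was higher and 14 lower with median-ratio scaling, 1 was higher with quantile normalization, and 3 to 6 were higher with a sample left out. The cause of these changes was not tested.

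For pairs of clock genes, 1 of 12 passed within the 9 mice, 0 did after median-ratio scaling, and 0 to 2 did with a sample left out. Over all 12 mice, as first planned, 8 passed, and r was -0.642 for Arntl with Per1 and -0.419 for Arntl with Cry2, the opposite sign to the 9 mice. The 12 mice add the 3 mice with high Arntl. Counted from the lowest of 12 mice, control 3 and CKO 1 ranked 1 and 2 in Per1 and 1 and 3 in Cry2. CKO 6 ranked 7 in Per1 and 9 in Cry2. For Arntl with Nr1d2, r was -0.924 over 12 mice and -0.923 within the 9. With a sample left out, r ranged from -0.225 to 0.429 for Arntl with Per1, -0.0657 to 0.517 for Arntl with Cry1, and -0.141 to 0.227 for Arntl with Cry2.

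The labels do not say whether mice of the same number form pairs, and the correlations of same-numbered samples cannot decide it. Deviations of same-numbered samples correlated at 0.0404 on average, against -0.00879 for other pairs, and 2 of 6 numbers correlated best with their own. With a replicate block, 272 genes were higher and 40 lower at the adjusted threshold, and 0 clock genes were called. The depth in reads is unknown, and with 6 mice per group spread over 3 levels of Dbp, the 95% intervals of Dbp (-1.35 to 0.97), Arntl (-1.03 to 1.15) and Nr1d1 (-1.09 to 1.06) leave shifts within them unresolved.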
